A study of Rattus norvegicus with 4 samples.

Results

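Steroid receptors turn a hormone signal into a change of transcription. The glucocorticoid receptor (Nr3c1), the mineralocorticoid receptor (Nr3c2), the progesterone receptor (Pgr) and the oestrogen receptors alpha and beta (Esr1 and Esr2) are nuclear receptors, which bind DNA as hormone-activated transcription factors. Gper1 is a membrane receptor coupled to G proteins that responds to oestrogen. In the testis, steroids made by Leydig cells reach the peritubular myoid cells, the contractile layer around the seminiferous tubule.

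The transcripts of these 6 receptors were measured by 9 of the 41012 non-control probes, which carry 35672 distinct names, on an Agilent 4x44k rat array. A probe was taken when its name in the scanner files was the symbol of a receptor or an older symbol of one. Gper1 was represented by a probe named Gpr30. A probe named Gpr41_predicted shared an alias with Gper1 but lay on chromosome 1, whereas Gper1 lies on chromosome 12, and was left out as another gene.

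The cells were rat peritubular myoid cells from testes of 40-day-old males, kept for 4 days in a medium with defined growth factors. One group of 2 arrays came from cells given testosterone at 1e-07 M in pulses, and the other group of 2 arrays came from control cells. The labels carry the same treatment text for every sample, and do not say what the control cells received or whether replicates were separate cultures or animals, so the spread between arrays may be technical. Levels are log2 processed signals minus the 75th percentile of the array, given as means ± SD over n = 2 arrays where averaged.

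Of the 9 probes, 4 were well above background on all 4 arrays and 5 on none. Well above background is the scanner software's own flag for a spot clearly brighter than its surroundings. Both probes of Nr3c1, 1 of 2 probes of Nr3c2 and 1 of 2 probes of Pgr carried it. Esr1, Esr2 and Gper1 had no probe well above background on any array. No receptor probe was saturated. Probes differ in how well they bind their target, so the level of one receptor is not ranked against that of another. In RNA from a whole culture, fewer cells with a transcript and less of it per cell cannot be told apart.

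**Figure D1:**
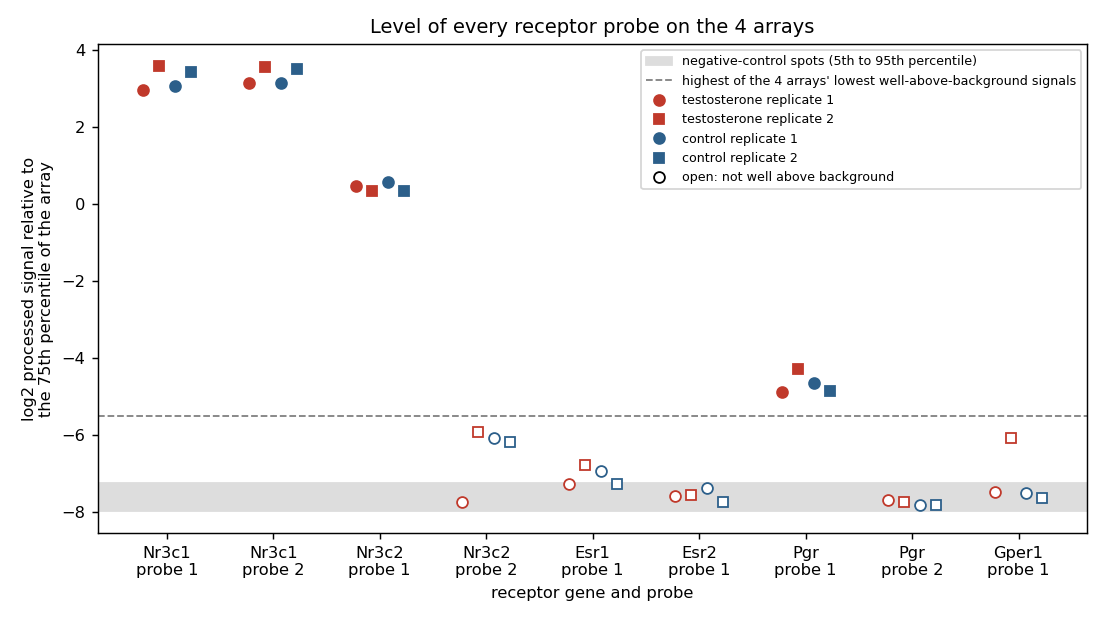
Level of each of the 9 receptor probes on each of the 4 arrays (y axis, log2 processed signal relative to the 75th percentile of the array), with testosterone arrays in red, control arrays in blue, and open symbols for probes not well above background. The grey band is the range from the 5th to the 95th percentile of negative-control spots over the 4 arrays, and the 4 probes with filled symbols lie above the dashed line, the highest of the 4 arrays' lowest well-above-background signals.

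No receptor probe passed the test of testosterone against control. The 4 receptor probes above background were tested among 25880 probes in limma, with Benjamini-Hochberg adjustment over all of them. Of the receptor probes 0 were called higher and 0 lower at an adjusted p under 0.05, and of all tested probes 0 (0%) were called, with 208 (0.804%) at an unadjusted p under 0.05. The testosterone and control arrays overlapped for all 4 receptor probes, where 15.1% of all tested probes had groups that did not overlap. Half-widths of the 95% interval had a median of 0.64 over all tested probes, which is the precision that 2 arrays per group gave for a typical probe. In simulated data, 0% of probes changed by 1 or 2 on the log2 scale were called. The lack of calls thus does not show that a receptor was unchanged.

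Promoter windows are printed as examples for Nr3c1, with 40 of 40 spots bright, and for Esr1, with no spot well above background. RefSeq windows of the rat build GRCr8, from 250 bases before to 50 bases after a gene's start, were matched for 4 of the 6 receptors, with 2 start sites for Nr3c1. Capitals mark CG dinucleotides, and each window runs 5′ to 3′ along the strand of the gene.
Nr3c1, chr18:31613390-31613689, minus strand: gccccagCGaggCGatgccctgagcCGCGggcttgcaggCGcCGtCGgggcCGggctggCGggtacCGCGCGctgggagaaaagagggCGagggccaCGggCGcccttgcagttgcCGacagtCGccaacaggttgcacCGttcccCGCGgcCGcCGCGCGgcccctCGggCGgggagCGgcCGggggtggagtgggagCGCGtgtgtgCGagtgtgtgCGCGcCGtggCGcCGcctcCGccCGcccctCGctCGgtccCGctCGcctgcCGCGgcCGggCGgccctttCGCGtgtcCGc
Esr1, chr1:43641845-43642144, plus strand: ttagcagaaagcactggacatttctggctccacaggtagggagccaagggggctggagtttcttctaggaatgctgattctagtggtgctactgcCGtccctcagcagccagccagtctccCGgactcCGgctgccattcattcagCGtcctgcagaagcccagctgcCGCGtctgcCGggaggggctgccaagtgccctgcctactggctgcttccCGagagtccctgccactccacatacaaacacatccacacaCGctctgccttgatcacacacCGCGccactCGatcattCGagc

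The Nr3c1 windows, of which the first is printed, held 49 and 31 CG dinucleotides, more than in 99.1% and 90.7% of the 33469 windows of that length. The Esr2, Esr1 and Pgr windows held 17, 13 and 6, and the median window held 7. Pgr, which had the fewest, had a probe well above background on all 4 arrays, whereas Esr1 and Esr2 had none. The GC content was 79.0% and 66.0% in the Nr3c1 windows, 54.7% in Esr2, 59.7% in Esr1 and 47.7% in Pgr. The base composition of a window is a description of the sequence and was not tested against the level of the transcript. Both strands were searched for the half-site AGAACA of glucocorticoid, mineralocorticoid and progesterone receptors and for the half-site AGGTCA of oestrogen receptors. Neither was found in any of the 5 windows, while 20.7% and 16.2% of all windows held them. The letters GGGCGG, bound by Sp1, occurred 4 times and 1 time in the Nr3c1 windows and 1 time in the Pgr window (33.1% of all windows), and TATAAA occurred 1 time in the Pgr window (14.2% of all windows).

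**Figure D2:**
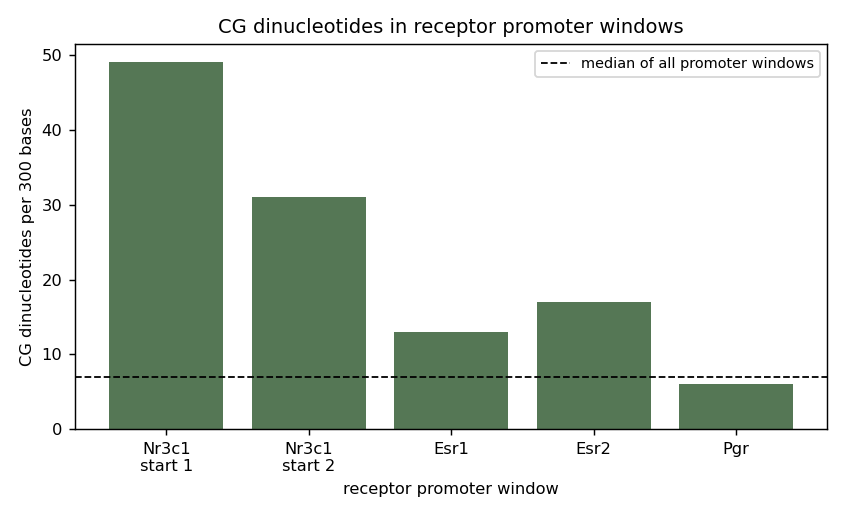
Number of CG dinucleotides in the promoter window of each receptor with a RefSeq entry (y axis). The bars for the Nr3c1 start sites stand at 49 and 31, those of Esr1, Esr2 and Pgr at 13, 17 and 6, and the dashed line is the median of all windows at 7.

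Nr3c1 was bright in testosterone and control cells alike. Nr3c1 encodes the glucocorticoid receptor, which cortisol or corticosterone activates and which binds DNA as a dimer. Its first probe, printed at 10 places on each array, lies on chromosome 18 from 32371565 to 32371626 on the minus strand of the rat build rn4, which all probe positions here use. It stood at 2.95 and 3.57 on the testosterone arrays and at 3.07 and 3.42 on the control arrays. The lowest and the highest of these values both came from testosterone arrays, so the control arrays lay between them. The means were 3.26 ± 0.44 with testosterone and 3.25 ± 0.25 in control (SD, n = 2 each), a difference of 0.01 with a 95% interval from -0.79 to 0.81 (adjusted p = 1.00 in limma).

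The second Nr3c1 probe, on chromosome 18 from 32371932 to 32371991 on the same strand, gave the same picture. It read 3.13 and 3.54 with testosterone and 3.14 and 3.51 in control. Testosterone minus control came to 0.01 (95% interval -0.68 to 0.70, adjusted p = 1.00 in limma). Between the probes lie 306 bases, and both place the replicate 2 arrays above the replicate 1 arrays. For the first probe that gap was 0.63 between the testosterone arrays and 0.35 between the control arrays, and for the second 0.41 and 0.37. The gap between replicate numbers was thus larger than any difference between same-numbered arrays, which was -0.13 for number 1 and 0.15 for number 2 with the first probe, and -0.01 and 0.03 with the second.

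The 10 spots of the first Nr3c1 probe measured the precision within an array. On the testosterone arrays they ran between 2.84 and 3.02, with a median of 2.94, on replicate 1 and between 3.44 and 3.72, with a median of 3.57, on replicate 2. On the control arrays they ran between 2.96 and 3.41, with a median of 3.04, on replicate 1 and between 3.33 and 3.49, with a median of 3.42, on replicate 2. The spots of the replicate 1 and replicate 2 arrays did not overlap within the testosterone group, and within the control group 1 spot of replicate 1 reached into the range of replicate 2.

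Expressed on the linear scale, the coefficient of variation of these Nr3c1 spots was 4.22% and 5.26% on the testosterone arrays and 9.78% and 3.15% on the control arrays. Control replicate 1 thus had the widest spread, and over all replicated probes its header likewise gave a median coefficient of 9.52%, against 5.25% to 5.53% on the other 3 arrays. The brightest spot of control replicate 1 lay in columns 57 to 85. In those columns that array read over 1 below the other 3 arrays for 361 of 8615 tested probes printed once (4.19%), against 28 of 17070 (0.164%) elsewhere. With the 3 spots in those columns left out, the mean on control replicate 1 was 3.05 in place of 3.07. Spots of one array are repeats of one RNA sample and were averaged before the test.

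**Figure D3:**
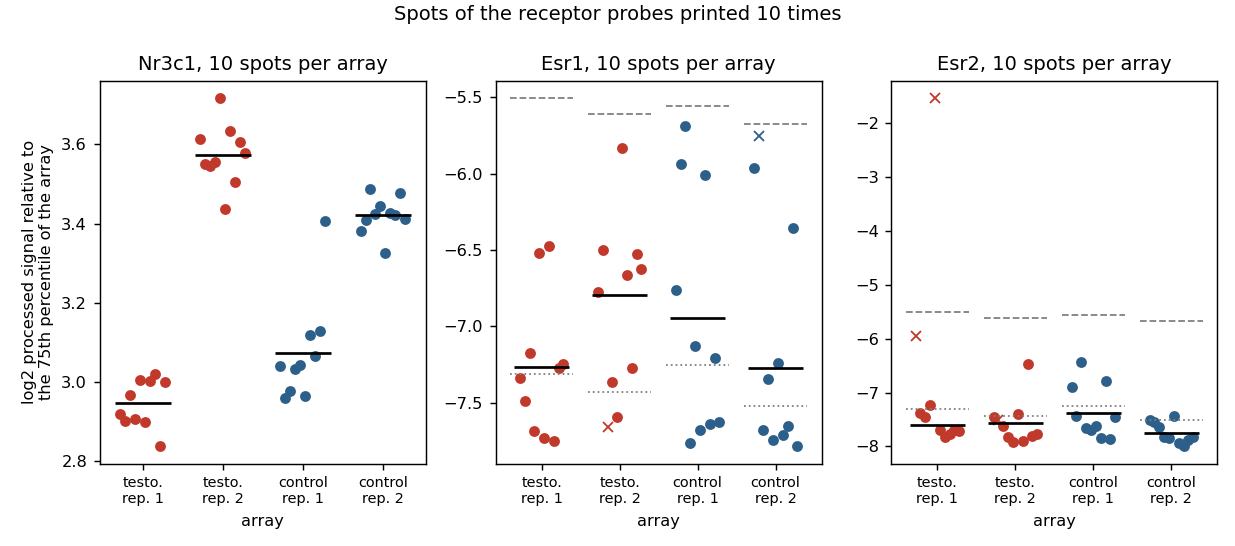
Each spot of the 3 receptor probes printed 10 times per array (y axis, log2 processed signal relative to the 75th percentile of the array), with black bars for the mean of the kept spots, crosses for spots flagged as outliers, dotted lines for the 95th percentile of negative-control spots and dashed lines for the lowest signal well above background. The Nr3c1 spots ran from 2.84 to 3.72, and the kept Esr1 and Esr2 spots all lay below the dashed lines, with 1 outlier-flagged Esr2 spot at -1.55 on testosterone replicate 1.

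Nr3c2, the mineralocorticoid receptor, was detected with one of its probes. The receptor binds aldosterone and also corticosterone. The probe on chromosome 19 from 32528010 to 32528068, minus strand, read 0.48 and 0.34 with testosterone and 0.58 and 0.34 in control. The groups overlapped and the 4 arrays lay within a narrow range. The means were 0.41 ± 0.09 with testosterone and 0.46 ± 0.17 in control (SD, n = 2 each), a difference of -0.05 with an interval from -0.59 to 0.48 (adjusted p = 1.00 in limma). Unlike Nr3c1, the replicate 2 arrays were not the higher ones here, since they lay 0.13 below replicate 1 with testosterone and 0.23 below it in control.

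The other Nr3c2 probe lies 59.1 kb from the first on the same strand, from 32587188 to 32587247, and had no well-above-background flag on the 4 arrays. The spot lay in columns 57 to 85 and was not found by the scanner software on control replicate 1. It read -7.75 and -5.94 with testosterone and -6.07 and -6.19 in control, and no fold change is given. Every reading but that of testosterone replicate 1 exceeded the 95th percentile of the negative controls of its array. A probe outside the rule, which the files name by the accession S66250 and describe as the 5′ region of the mineralocorticoid receptor, was chosen after its values were seen. Its position runs from 32867025 to 32875641 on chromosome 19, starting 339 kb from the bright probe. That probe was well above background on all 4 arrays, at -4.55 and -4.25 with testosterone and -5.10 and -4.44 in control, a difference of 0.37 (-0.44 to 1.18, adjusted p = 1.00 in limma). The gene runs along the minus strand, so the bright probe lies nearest its 3′ end. The RNA was copied from an oligo-dT primer at the 3′ end, and the part of probe position in these levels was not tested.

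Pgr, which mediates the response to progesterone, also gave different readings with its probes. The probe for accession S68284, described in the files as progestin receptor form B and given no position there, was well above background on all 4 arrays but dim. It read -4.88 and -4.30 with testosterone and -4.66 and -4.87 in control, and the lowest signals well above background were -5.51 and -5.61 on the testosterone arrays and -5.56 and -5.68 on the control arrays. The control arrays lay between the testosterone arrays. Its means were -4.59 ± 0.41 with testosterone and -4.77 ± 0.15 in control (SD, n = 2 each), a difference of 0.18 with an interval from -0.55 to 0.91 (adjusted p = 1.00 in limma). The difference was -0.22 between the arrays numbered 1 and 0.57 between those numbered 2, so the signs were opposite. On testosterone replicate 1 the scanner software did not find the spot.

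The other Pgr probe, placed by the files on chromosome 8 between 5838704 and 5842236, was at the level of the negative-control spots. It read -7.69 and -7.75 with testosterone and -7.81 and -7.83 in control, against negative-control medians of -7.67 and -7.81 on the testosterone arrays and -7.67 and -7.83 on the control arrays. All 4 readings were under the 95th percentile of the negative controls. The position spans 3533 bases, far longer than an array oligo. Only the S68284 probe therefore gave a signal for Pgr.

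Esr1 was not well above background in any of 38 kept spots. Esr1 encodes oestrogen receptor alpha, and its probe lies on chromosome 1 from 35660062 to 35660121 on the plus strand. The kept spots had medians of -7.31 and -6.66 on the testosterone arrays and of -7.17 and -7.65 on the control arrays. They ran from -7.75 to -6.48 and from -7.59 to -5.83 on the testosterone arrays, and from -7.77 to -5.69 and from -7.78 to -5.96 on the control arrays. The groups overlapped, and every kept spot was below the lowest signal well above background on its array.

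Compared with the 153 negative-control spots of each array, the kept Esr1 spots had a higher median on every array. The negative-control medians were -7.67 and -7.81 on the testosterone arrays and -7.67 and -7.83 on the control arrays. Of the 38 kept spots 23 (60.5%) exceeded the 95th percentile of the negative controls of their array, at 5 of 10 and 8 of 9 spots on the testosterone arrays and 6 of 10 and 4 of 9 spots on the control arrays. Since no spot reached the well-above-background flag, the level of Esr1 has only an upper limit. No fold change is given, since the probe lacked that flag in both groups.

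Esr2, oestrogen receptor beta, was likewise not well above background in any of 37 kept spots. The files place its probe on chromosome 6 between 98692012 and 98693324 on the minus strand. Means over kept spots were -7.60 and -7.57 on the testosterone arrays and -7.37 and -7.74 on the control arrays. Of the kept spots 8 (21.6%) exceeded the 95th percentile of the negative controls. Over the kept spots outside columns 57 to 85 the means were -7.58 and -7.86 on the testosterone arrays and -7.77 and -7.87 on the control arrays.

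A single Esr2 spot stood apart. On testosterone replicate 1, 1 of the 10 spots, in row 249 and column 38, read -1.55 and carried both the well-above-background flag and the outlier flag, while the kept spots of that array ran from -7.83 to -7.22. In the authors' deposited table, Esr2 has the value -1.48 on that array, which equals that spot alone on the table's scale, where the mean of all 10 spots would be -6.76. The authors' deposited table gives -7.48 on testosterone replicate 2, and -7.29 and -7.66 on the control arrays. The Esr2 means in the authors' deposited table are -4.48 with testosterone and -7.47 in control, whereas over the kept spots of the scanner files the groups differ by -0.02. For Nr3c1 and Esr1 the authors' deposited values equalled the mean over all 10 spots on every array.

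Gper1, the membrane oestrogen receptor, gave no signal well above background. Its probe lies on chromosome 12 from 15719539 to 15719598 on the minus strand, and its spot was in columns 57 to 85. It read -7.49 and -6.10 with testosterone and -7.52 and -7.65 in control. Testosterone replicate 2 was the only array above the 95th percentile of its negative controls, which was -7.43, and its lowest signal well above background was -5.61. The probe lacked the well-above-background flag in both groups, so no fold change is given.

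**Figure D4:**
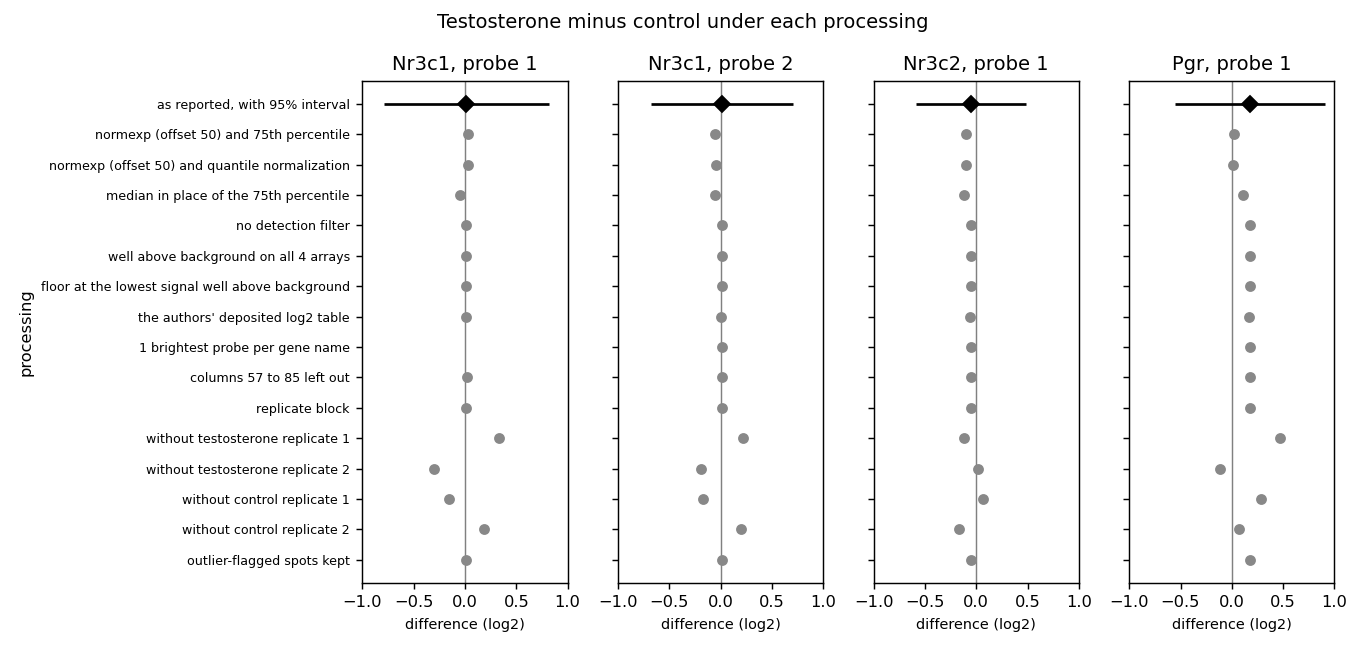
Difference between testosterone and control (x axis, log2) for the 4 receptor probes above background, as reported with its 95% interval (black diamond and bar) and under each other processing (grey points). All points lie between -0.30 and 0.47, and the reported intervals of all 4 probes include 0.

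Genes that work with these receptors were grouped in 6 lists, and 0 of their genes were called in either direction, where 0% of all tested probes were. Over all tested probes 47.7% had a positive difference and the median difference was -0.01. Groups did not overlap with testosterone higher for 6.13% and with testosterone lower for 8.95% of all tested probes. Each gene below stands for its brightest tested probe, and each difference is testosterone minus control. Of the tested list genes named, Ncoa1, Ncor1, Paqr3, Paqr4, H6pd, Hsd11b1, Hsd11b2, Klf15, Cdkn1a, Gja1 and Wnt4 had probes in columns 57 to 85.

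Coactivators and corepressors, the proteins that receptors recruit to chromatin, had 29 of 34 genes tested, of which 6 had positive and 23 negative differences, with a median of -0.07. Ncoa1, a steroid receptor coactivator, had means of 0.30 ± 0.15 with testosterone and of 0.20 ± 0.25 in control cells (SD, n = 2 each), a difference of 0.10. Control replicate 1 was its lowest array, at 0.02. Ncoa2, which also binds activated receptors, read -3.69 and -3.68 with testosterone and -3.87 and -3.90 in control, the only gene of the list whose groups did not overlap. The corepressor Ncor1 differed by -0.04 and Tgfb1i1, a focal adhesion protein that is also a receptor coactivator, by -0.20 (-1.13 to 0.74). Nr0b1, which represses other nuclear receptors, read -4.49 and -5.37 with testosterone and -3.26 and -5.23 in control, a difference of -0.69 (-2.66 to 1.29).

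Membrane progesterone receptors and related proteins had 11 of 12 genes tested, 5 positive and 6 negative, with a median of -0.01. Paqr9, among the negative genes, lay under the lowest signal well above background on testosterone replicate 1, so it passed the filter through the control arrays. With only probes above background on all 4 arrays the list had 10 genes and a median of 0.004. Pgrmc1, a haem-binding membrane protein, was bright, with means of 6.24 ± 0.36 under testosterone and 6.25 ± 0.27 in control cells (SD, n = 2 each), and differed by -0.01 (-0.76 to 0.73). Paqr3, a Golgi protein of the same family as the membrane progesterone receptors, read -2.77 and -3.05 with testosterone and -3.99 and -3.25 in control, a difference of 0.71 (-0.14 to 1.56). The Paqr3 probe is in columns 57 to 85 and control replicate 1 was its lowest array, and the part of that area in the difference was not tested. Paqr4, Serbp1 and Cyb5d2 differed by -0.15, 0.14 and 0.14.

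Orphan nuclear receptors had 9 of 14 genes tested, 6 positive and 3 negative, with a median of 0.02. Nr2f2, a receptor of mesenchymal cells, averaged 3.06 ± 0.08 under testosterone and 3.16 ± 0.43 in control cells (SD, n = 2 each). Nr4a3, an early response gene, differed by 0.42 (-1.03 to 1.88), Nr2c2 by -0.37 and Nr2f6 by -0.09. The probes of Esrrb and Esrrg, which are related to the oestrogen receptors in sequence, gave no signal well above background. The Esrra probe carried that flag on all 4 arrays, but its spot was also flagged as an outlier on control replicate 1, so it had no kept value there and was not tested.

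Enzymes that make or remove the ligands of these receptors had 15 of 22 genes tested, 7 positive and 8 negative, with a median of -0.05. Hsd11b1, which regenerates active glucocorticoid inside cells, was bright, at 7.34 and 7.73 with testosterone and 7.41 and 7.57 in control. Its probe was saturated on at least 1 array, so its difference of 0.04 is not exact. Hsd11b2, which inactivates glucocorticoid and so keeps it from the mineralocorticoid receptor, read 2.17 and 0.70 with testosterone and 2.51 and 1.05 in control. Its arrays split by replicate number and the groups overlapped, with a difference of -0.35 (-2.25 to 1.56). H6pd, which supplies the cofactor of Hsd11b1 and whose probe is in columns 57 to 85, differed by 0.53 (-0.14 to 1.21), Sts, a steroid sulphatase, by -0.32 and Hsd17b1, which makes oestradiol from oestrone, by -0.19. The probe of Cyp19a1, the aromatase that converts testosterone to oestradiol, gave no signal well above background.

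Targets of the glucocorticoid and mineralocorticoid receptors had 20 of 26 genes tested, 7 positive and 13 negative, with a median of -0.12. For 7 of the 20 (35%) both testosterone arrays lay below both control arrays, against 8.95% of all tested probes, and for 0 above them. The lists were chosen with earlier results of these data known. They take the brightest tested probe per gene, so the shares are over unlike sets. Other lists also had shares above that of all probes, with 4 of 15 ligand enzymes (26.7%) apart and lower. Among membrane progesterone receptors and related proteins, 3 of 11 genes (27.3%) were apart and higher, where all probes had 6.13%. Those 3 were Paqr3, Serbp1 and Cyb5d2, and the groups of Paqr5, Paqr7 and Paqr8 overlapped. The test called 0 of the 7 targets, and the 95% interval of each included 0. Klf15, a glucocorticoid-induced transcription factor with a probe in columns 57 to 85, averaged 4.37 ± 0.01 under testosterone and 4.72 ± 0.16 in control cells (SD, n = 2 each), a difference of -0.35 (-0.87 to 0.17). Zbtb16, a zinc finger transcription factor that is also on the germ cell list, read -3.98 and -4.03 with testosterone and -3.75 and -3.59 in control. Tsc22d3, the glucocorticoid-induced leucine zipper protein, read 5.36 and 5.26 with testosterone and 5.50 and 5.51 in control. Cdkn1a, Klf9, Angptl4 and Errfi1 were the others of the 7, named after their values were seen, with differences of -0.20, -0.16, -0.18 and -0.12. Fkbp5 differed by 0.02, Per1 by -0.06, Sgk1 by -0.11, Dusp1 by -0.30 and Atp1b1 by -0.21, with groups that overlapped.

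Targets of the oestrogen and progesterone receptors had 16 of 22 genes tested, 8 positive and 8 negative, with a median of -0.01. Areg, a growth factor, differed by -0.42 (-1.67 to 0.84), Gja1, a gap junction protein, by 0.21, Kcnk5, a potassium channel, by -0.20 and Wnt4, a Wnt ligand, by 0.18, and the groups of all 4 overlapped. Ihh, a hedgehog ligand named after its values were seen, read -4.01 and -5.13 with testosterone and -5.31 and -6.30 in control. The value of control replicate 2 lay under the lowest signal well above background on that array. The probe thus passed the filter through the testosterone arrays, and no difference is given. Ihh still counts among the 16 tested and the 8 positive genes. With only probes above background on all 4 arrays the list had 15 genes and a median of -0.05. No tested probe carried the name Greb1.

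**Figure D5:**
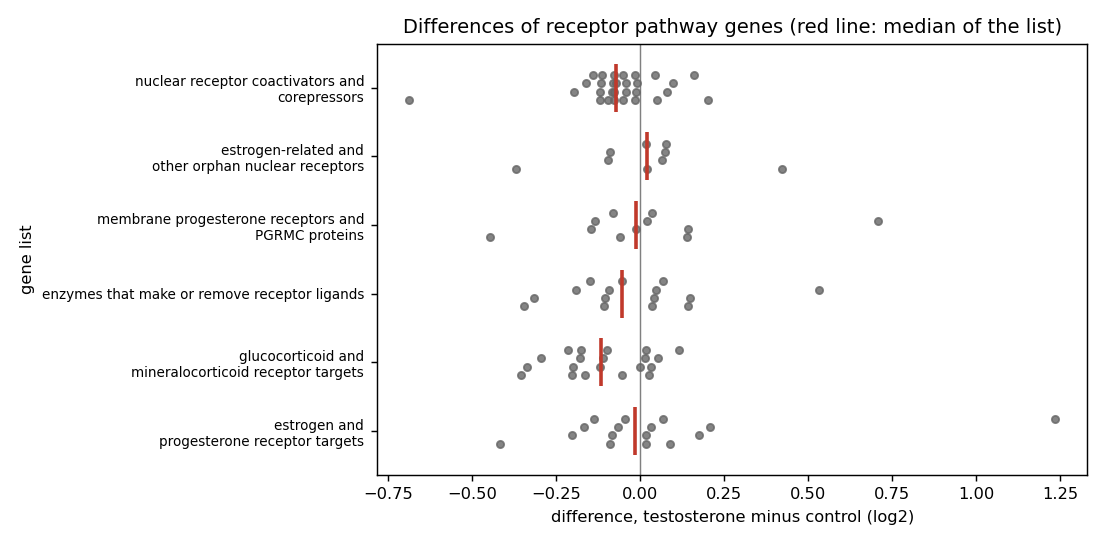
Difference between testosterone and control (x axis, log2) for each tested gene of the 6 receptor pathway lists, with a red line at the median of each list. Ihh, which passed the filter through the testosterone arrays, and Paqr9, through the control arrays, are among the points. The medians run from -0.12 for glucocorticoid and mineralocorticoid receptor targets to 0.02 for orphan nuclear receptors, and with 1 array left out those of the orphan receptors, membrane progesterone receptors and oestrogen and progesterone receptor targets took either sign.

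With 4 arrays, many genes share the pattern of a receptor. Likeness was taken as the Euclidean distance between the 4 levels of 2 probes, each centred on its own mean, over 10213 named genes whose probes were above background without saturation on every array. Each receptor stands for its brightest probe. For Nr3c1 the nearest were Plekhh2, Tmem176a and Stard3, at distances of 0.01, 0.02 and 0.02, and 907 genes lay within 0.2. For Nr3c2 they were Rnf216, Tubb3 and Syf2, at distances from 0.0011 to 0.01, with 2128 genes within 0.2. For Pgr they were Mllt11, Angel1 and Slc66a2, at distances of 0.05 to 0.06, with 126 genes within 0.2.

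The identity of the cells was checked against markers. Of 14 peritubular myoid markers, 12 had a named probe and 11 were tested, Cnn1 was not well above background, and no probe was named Acta2 or Myh11. Summed over the 11, the level came to 8.20 and 8.43 on testosterone arrays and to 8.38 and 8.49 on control arrays. Other cell types also left a signal. The summed level of 6 macrophage markers ran from 6.68 to 7.05 with testosterone and from 6.73 to 7.26 in control, and that of 5 Leydig cell markers from 6.56 to 6.92 with testosterone and from 6.66 to 6.72 in control, with Lhcgr not well above background. Of the Sertoli cell markers 5 of 8 were tested, with sums from 3.37 to 3.98 with testosterone and from 3.60 to 4.06 in control, and Sox9, Fshr and Wt1 were not well above background. The 4 germ cell markers tested summed to -1.08 and 2.14 with testosterone and to -1.20 and 2.17 in control. That sum was higher on the replicate 2 arrays in both groups. Not every germ cell marker was, since Zbtb16 read -3.98 and -4.03 with testosterone. Endothelial markers, 3 of 6 tested, ran from -0.63 to 0.12 with testosterone and from -0.39 to 0.65 in control, and the 6 mesothelial and fibroblast markers tested ran from 7.37 to 7.70 with testosterone and from 7.51 to 7.64 in control. The sums of peritubular myoid, Leydig, germ cell, endothelial, and mesothelial and fibroblast markers were higher on replicate 2 in both groups, as Nr3c1 was. Those of macrophage and Sertoli cell markers were lower there in both groups. The part of other cells in the receptor levels was not tested.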

How the data were processed

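Per the labels' protocols, cDNA was primed with oligo-dT, and Cy3-labelled cRNA transcribed from it was read on 4 one-colour arrays. Per the file headers, the deposited scanner files hold spot intensity values from Feature Extraction 11.5.1.1 with positions on rn4, while version 10.5 of that program stands in the submitters' processing notes. The deposited table of the series holds the authors' log2 values. Over 40749 probes printed once, each of its columns equalled the log2 processed signal minus 8.79 and 8.38 for testosterone replicates 1 and 2 and 8.63 and 8.55 for control replicates 1 and 2, and its column medians were -3.61, -3.34, -3.62 and -3.45, so scale and direction are known and genes were not centred. The well-above-background, saturation and outlier flags, coded as other whole numbers, were used as deposited.

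From each log2 processed signal the 75th percentile of its array, taken over 43379 non-control spots, was subtracted. Spots with the outlier flag were dropped, those at saturation stayed in, and a probe's spots were averaged. A probe counted as well above background on an array when over 50% of its kept spots were. The test took probes above background on the 2 arrays of testosterone, of control or of both, left out 34 of them that had no kept spot on some array, and used lmFit and eBayes of limma 3.58.1 (R 4.3.3, 2-sided), with no covariate, as 4 arrays of 1 slide and 1 scan. An exact permutation test of 2 against 2 arrays goes no lower than a p of 0.333, and was not run. Data of 25880 probes were simulated with noise drawn separately for each array, without the shared deviation of same-numbered arrays (correlation 0.589). In them 53.0% of probes changed by 4 on the log2 scale were called, and 0% of those changed by 1 or 2. Between 63.5% and 68.2% of non-control spots had the well-above-background flag, and precision is limited by there being 4 arrays.

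Probes were named by accession (10835), symbol (5201) or an older symbol on the same chromosome (3471) through the RefSeq table of GRCr8, and 21505 kept the file's name. Named genes were all receptor probes, up to 4 genes per list with the largest differences among probes above background and unsaturated on all arrays, a set of fixed genes, and the 3 nearest patterns per receptor. The members and lists were chosen with earlier results of these data known. A further receptor of this family is not reported here.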

Additional observations from a re-analysis of the deposited data

How the results depend on the processing

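With all 4 arrays kept, limma called 0 probes in either direction under each of the 11 alternatives, and 0 receptor probes or list genes. Keeping outlier-flagged spots, which brings the probes tested to 25918, Esrra among them, was chosen after seeing the data. The difference of the second Nr3c1 probe, 0.01 as reported, was -0.055 with normexp and the 75th percentile, -0.044 with normexp and quantile normalization and -0.054 with the median in place of the percentile, and with that median the first Nr3c1 probe was at -0.053. The median moved all differences by -0.07. Nr3c2 stayed between -0.12 and -0.05 and Pgr between 0.007 and 0.18 under these alternatives. Leaving out 1 array gave 0 to 67 probes called higher, the 67 without control replicate 2, and 0 lower, with 0 receptor probes called. A lone array was then assumed to vary like the pair. The differences then ran from -0.30 to 0.33 and from -0.19 to 0.22 for the Nr3c1 probes, from -0.17 to 0.064 for Nr3c2 and from -0.11 to 0.47 for Pgr. List medians then ran from -0.14 to 0.17 for membrane progesterone receptors, from -0.15 to 0.12 for oestrogen and progesterone receptor targets, from -0.034 to 0.063 for orphan receptors, from -0.13 to -0.0022 for coactivators and corepressors, from -0.12 to -0.039 for ligand enzymes and from -0.17 to -0.13 for glucocorticoid and mineralocorticoid receptor targets. The orphan receptor median was also negative with normexp, at -0.0093 and -0.028, and with median scaling, at -0.044. The medians of membrane progesterone receptors and of oestrogen and progesterone receptor targets, negative as reported, reached 0.020 and 0.017 under the 11 alternatives. The cause of these shifts was not tested. With the replicate number as a block the receptor differences were the same, at 0.01, 0.01, -0.05 and 0.18, and 0 probes were called. Over 24488 probes, arrays of one number deviated together from their groups (correlation 0.589), but no label ties a number to a culture, and pairing was not assumed. Signals near background limit what can be said of Esr1, Esr2, Gper1 and the dimmer probes of Nr3c2 and Pgr. No block for the slide could be fitted, as there was 1 slide. The first Nr3c1 probe has no value with 1 brightest probe per gene name, which takes the second.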
